A study of Mustela putorius furo with 8 samples.

Results

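Keratins 7, 8 and 19, encoded by KRT7, KRT8 and KRT19, are the keratins of simple, single-layered epithelia and are widely used to mark pancreatic ducts. The 3 genes were taken by their symbols from the 27912 genes counted in single-cell RNA libraries of ferret pancreatic ductal epithelial (PDE) cultures, and all 3 were detected in every library. The cultures came from pancreatic ducts of newborn WT ferrets and newborn ferrets of genotype CFTR KO/KO, called CF here, which lack the chloride and bicarbonate channel CFTR. Duct cells of both genotypes were expanded on 804G-coated dishes and passaged repeatedly to remove other cells, and were then grown on transwell inserts in the same differentiation medium with air on the apical side. Cells were taken on day 2, 5, 7 and 9 at this air-liquid interface, with 1 library per genotype and day, 8 libraries in all. The study pooled cells of several donors, whose WT and CF cultures differed in PDX1, a transcription factor of the pancreas lineage, so every difference between genotypes is between these pools of donors. No library has a replicate. No test between genotypes or days was therefore run, and all intervals are 95% intervals of counting error alone.

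Keratins are intermediate filament proteins that assemble only as pairs of a type I and a type II chain. KRT7 and KRT8 are type II and KRT19 is type I. KRT18, the usual type I partner of KRT8, is therefore described beside them. In the adult pancreas, acinar cells carry mainly keratins 8 and 18, whereas duct cells add keratins 7 and 19, and the filaments anchor at desmosomes and give the epithelium its mechanical strength. KRT5, KRT14 and KRT15 instead belong to basal cells of layered epithelia. On the ferret assembly ASM1176430v1.1 RefSeq places KRT7 at 3657953 to 3671995, KRT8 at 3059027 to 3066417 and KRT18 at 3023221 to 3027047, and it places KRT19 at 562083 to 566391 beside KRT15 at 553070 to 557406. The annotation table used names no chromosome for these genes, and it gives all 5 as protein-coding. Because keratins are a family of similar genes with many pseudogenes, reads of a related copy may bear on their counts, which was not tested.

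The cultures were epithelial by their markers. The adhesion molecules EPCAM and CDH1 reached at least 60.6 and 131 counts per 1000000 (CPM) in every cluster of at least 50 cells, and no library passed 0.0700 CPM for the 2 acinar enzymes in the table or 0.112 CPM for 4 endocrine markers, each list summed. The 4 immune markers summed to 4.32 to 13.2 CPM in WT and 4.98 to 21.8 CPM in CF, mostly CD68 and LYZ, with PTPRC near 0, and 4 endothelial markers to at most 0.259 CPM. The libraries held 1607 to 6224 retained cells and 34735952 to 114585136 unique molecular identifiers (UMIs). CF day 7 was the smallest library, and 411 of its cells had under 3000 UMIs, beside 39 to 224 in the others. The differences of the 3 genes stayed within their counting intervals when such cells were left out. A level is the share of a gene's UMIs in all UMIs of a library, per 1000000, and a difference between 2 levels is the log2 of CPM plus 1. Each cluster or library thus has its total fixed, and levels of different genes are not compared because the capture of a 3′ end can differ between genes. CFTR RNA was at 6.57, 16.9, 15.9 and 29.5 CPM in the WT libraries and at 2.50, 8.69, 11.1 and 11.4 CPM in the CF libraries, and counts of 3′ ends do not show whether a transcript is disrupted.

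KRT7 was higher at day 9 than at day 2 in both genotypes and higher in CF than in WT on 3 of 4 days. In WT PDE, KRT7 was at 1145 CPM at day 2, 2771 at day 5, 2216 at day 7 and 2493 at day 9. In CF PDE it was at 2133, 2752, 3471 and 3595 CPM on the same days. The lowest of the 8 libraries was WT day 2 and the 2 highest were CF day 7 and day 9, and the counting intervals of neighbours in this order overlapped only for CF day 5 and WT day 5. CF over WT stood at 1.86 (1.85 to 1.88) at day 2, 0.993 (0.987 to 0.999) at day 5, 1.57 (1.56 to 1.58) at day 7 and 1.44 (1.43 to 1.45) at day 9. Day 9 exceeded day 2 by 2.18-fold (2.16 to 2.19) in WT and 1.69-fold (1.68 to 1.70) in CF. The WT change was already reached at day 5, whereas the CF libraries were higher at each later day.

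The order of the genotypes in KRT8 turned after day 2. It was at 861, 1423, 1118 and 1541 CPM in WT PDE at day 2, 5, 7 and 9, and at 1141, 971, 892 and 1093 CPM in CF PDE. CF was thus above WT at day 2, with a ratio of 1.33 (1.31 to 1.34), and below it on the other days, with ratios of 0.682 (0.676 to 0.688) at day 5, 0.798 (0.787 to 0.808) at day 7 and 0.709 (0.702 to 0.716) at day 9. In CPM, the WT level at day 9 was the highest of the 8 libraries and the WT level at day 2 the lowest. No neighbours in this order had overlapping intervals. Over the same interval KRT8 differed by 0.84 on the log2 scale in WT and by -0.062 in CF.

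KRT19 was the most even of the 3 genes across libraries and was lower at day 9 than at day 2 in both genotypes. WT PDE held 5113, 5093, 4621 and 3772 CPM at day 2, 5, 7 and 9, and CF PDE held 5113, 4539, 4093 and 4011 CPM. The highest library exceeded the lowest 1.36-fold, compared with 1.79-fold for KRT8 and 3.14-fold for KRT7. The intervals of WT day 2, CF day 2 and WT day 5 overlapped at the top of the order. The largest difference between genotypes was at day 7, where CF over WT stood at 0.886 (0.880 to 0.891), and at day 9 the order was reversed with a ratio of 1.06.

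**Figure D1:**
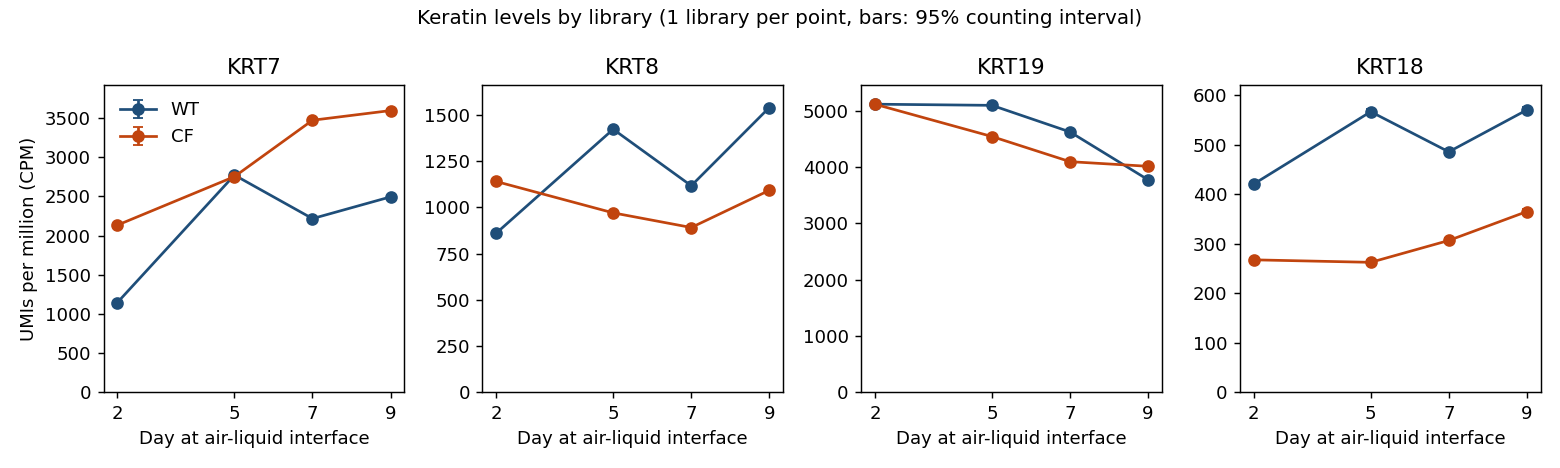
UMIs per 1000000 (CPM, vertical axis from 0) of KRT7, KRT8, KRT19 and KRT18 against day at the air-liquid interface, with 1 point per library, WT in blue and CF in orange, and 95% counting intervals that are mostly smaller than the points. KRT7 is highest in CF at day 7 and 9, KRT8 is lower in CF from day 5, KRT19 lies between 3772 and 5113 CPM, and KRT18 is lower in CF on all 4 days.

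None of the 3 genes was 2-fold apart between the genotypes on any day. Among genes of at least 10 CPM in 1 of the compared libraries, 8.39% were 2-fold apart at day 2, 6.33% at day 5, 7.77% at day 7 and 7.34% at day 9. Over time, KRT7 in WT was the 1 member that passed 2-fold between day 2 and day 9, where 15.9% of genes did, and no member passed it in CF, where 9.55% did. The KRT7 difference at day 2 was larger in size than that of 89.9% of genes, and the KRT19 difference at that day was larger than that of 0.0127%. Scaling of the libraries bears on these values. Trimmed mean of M-values (TMM) factors moved every CF minus WT difference by -0.055, 0.030, -0.21 and -0.13 on the log2 scale at day 2, 5, 7 and 9, which turned the sign of KRT7 at day 5 to 0.020 and of KRT19 at day 9 to -0.039. They moved every change from day 2 to day 9 by -0.20 in WT and -0.27 in CF, so that KRT7 in WT changed by 0.93 and no longer passed 2-fold, and KRT8 in CF changed by -0.33. The TMM factors, 0.869 for WT day 2 and 1.14 for CF day 7, also put KRT8 lower in CF day 7 than in WT day 2. The order of the 8 libraries thus depends on the scaling.

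Together the 3 genes held between 0.712% and 0.929% of the UMIs of a library, while the mixture within that sum shifted from KRT19 to KRT7 and, in WT, also to KRT8. The share of KRT19 among the UMIs of the 3 genes went from 71.8% at day 2 to 54.8%, 58.1% and 48.3% on the later days in WT, and from 61.0% to 54.9%, 48.4% and 46.1% in CF. KRT7 took 16.1%, 29.8%, 27.9% and 31.9% in WT and 25.4%, 33.3%, 41.1% and 41.3% in CF. KRT8 took 12.1%, 15.3%, 14.1% and 19.7% in WT and 13.6%, 11.8%, 10.5% and 12.6% in CF. A ratio between 2 genes of 1 library does not depend on how that library is scaled. In WT, 4.47, 1.84, 2.09 and 1.51 UMIs of KRT19 were counted per UMI of KRT7 at day 2, 5, 7 and 9, and in CF 2.40, 1.65, 1.18 and 1.12, lower on each of the 4 days. For KRT7 per UMI of KRT8, WT had 1.33, 1.95, 1.98 and 1.62 and CF had 1.87, 2.83, 3.89 and 3.29, higher on each day.

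KRT18, the type I partner of KRT8, was lower in CF on all 4 days. WT PDE held 421, 567, 486 and 571 CPM at day 2, 5, 7 and 9, and CF PDE held 268, 263, 307 and 365 CPM, with each WT library above each CF library. The difference was -0.65, -1.11, -0.66 and -0.64 on the log2 scale. Per UMI of KRT18, WT had 2.05, 2.51, 2.30 and 2.70 UMIs of KRT8 and CF had 4.26, 3.70, 2.91 and 2.99. The ratio was thus higher in CF on every day, and the genotypes were furthest apart at day 2, when CF held more KRT8 and less KRT18.

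**Figure D2:**
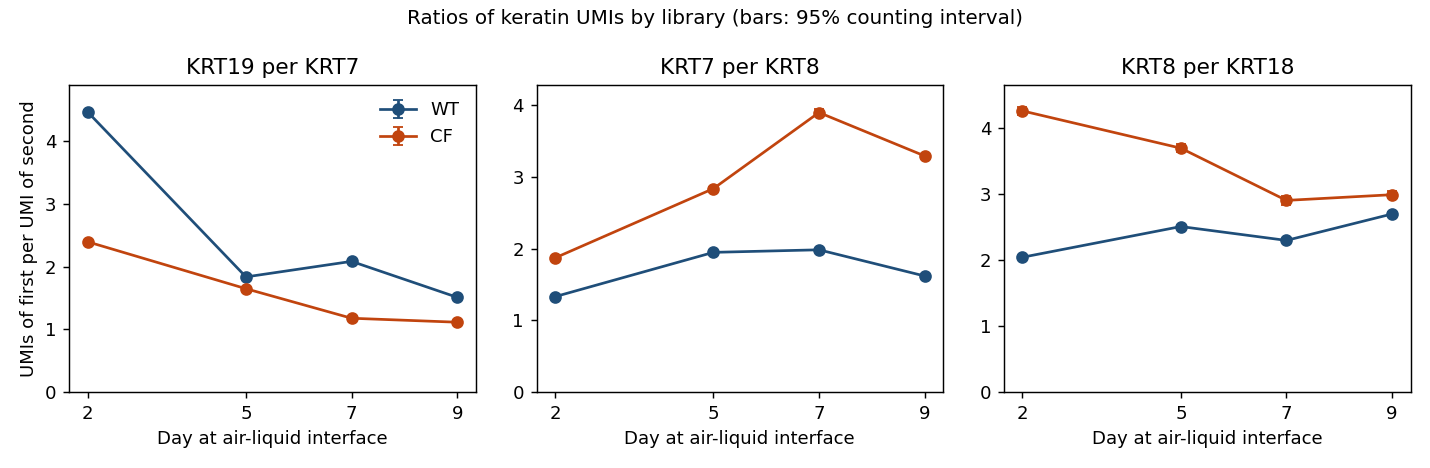
Ratio of the UMIs of 2 keratin genes within a library (vertical axis from 0) against day at the air-liquid interface, with WT in blue, CF in orange and 95% counting intervals. KRT19 per KRT7 is lower in CF, and KRT7 per KRT8 and KRT8 per KRT18 are higher in CF, on all 4 days.

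Of the 34 genes named KRT with a number, 8 reached 10 CPM in a library, which left 4 besides the members and KRT18. KRT14 has no row under that symbol and was not analysed here. KRT5, a type II keratin of basal cells, was at 1077, 626, 739 and 364 CPM in WT and 887, 548, 647 and 370 CPM in CF at day 2, 5, 7 and 9, lower at day 9 than at day 2 by 1.56 and 1.26 on the log2 scale. KRT15, a type I keratin of basal cells, was at 131, 27.9, 34.1 and 16.8 CPM in WT and 17.4, 10.1, 4.09 and 1.60 CPM in CF, so WT exceeded CF on each day. KRT4, a type II keratin of the upper layers of moist squamous epithelia, was at 78.6, 27.9, 65.8 and 52.1 CPM in WT and 50.03, 20.2, 7.80 and 3.28 CPM in CF. KRT10, a type I keratin of differentiating epidermis, was at 29.8, 49.1, 57.6 and 48.2 CPM in WT and 46.5, 69.4, 92.3 and 100.4 CPM in CF, higher in CF on each day. Libraries of different days may share donors, so the 4 days are not counted as independent repeats of the comparison.

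Genes for the attachment of keratin filaments, other intermediate filaments and duct epithelium were described by lists. Of 14 genes for attachment, 12 were in the table and all 12 reached 10 CPM. Their median difference between CF and WT was 0.21, -0.045, 0.35 and 0.052 on the log2 scale at day 2, 5, 7 and 9, beside -0.0013, -0.047, 0.14 and 0.088 over all genes. DSC2, a desmosomal cadherin, was past 2-fold on all 4 days, with 16.5, 22.6, 24.2 and 30.8 CPM in WT and 0.11 to 0.20 CPM in CF. COL17A1, a collagen of hemidesmosomes, was at 163 and 126 CPM in WT and 348 and 270 CPM in CF at day 7 and 9, 1.09 apart on both days. PKP3, a desmosomal plaque protein, was lower in CF by 0.32 to 0.51.

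Of 7 other intermediate filament genes, 3 reached 10 CPM. VIM, which encodes the filament of mesenchymal and migrating epithelial cells, was at 13.9, 42.3, 38.98 and 52.9 CPM in WT and 14.8, 35.7, 232 and 261 CPM in CF. CF thus exceeded WT by 2.55 and 2.28 on the log2 scale at day 7 and 9. LMNA, for lamin A and C of the nuclear lamina, was at 157 to 193 CPM in WT and 108 to 178 CPM in CF. Of 20 duct genes, 15 reached 10 CPM, and their median difference was 0.16, -0.026, -0.25 and -0.14. PROM1, an apical membrane protein of ducts, was at 61.4, 131, 218 and 343 CPM in WT and 1.74, 9.49, 8.32 and 7.76 CPM in CF. SPP1, the secreted protein osteopontin, was at 2.41, 141, 83.5 and 170 CPM in WT and 2.98, 41.7, 1082 and 1939.7 CPM in CF.

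Between cells the 3 genes were near-universal but unequally spread. The cultures are epithelial, so no cell type that should lack these genes was at hand to give the share due to free RNA. After each cell was thinned to 3000 UMIs, KRT19 had a UMI in at least 99.5% of cells of every WT library and at least 99.2% of cells of every CF library. KRT7 had a UMI in 89.1% (88.3 to 89.8) of WT day 2 cells and in 96.9% to 99.7% of cells of the other libraries. KRT8 had one in 71.6% (70.4 to 72.7) of WT day 2 cells, in 89.4%, 88.8% and 92.8% at day 5, 7 and 9 in WT, and in 84.4%, 84.3%, 82.1% and 86.8% in CF. Without thinning, the WT day 2 shares were 99.6% for KRT7 and 94.9% for KRT8, at a median of 16357 UMIs per cell. All 3 genes were found together in 65.1% of thinned WT day 2 cells, in 85.7% to 90.6% of later WT cells and in 81.5% to 86.0% of CF cells. Without thinning, 4 of 32945 cells had no UMI of any of the 3.

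Of the 3 members, KRT8 varied most from cell to cell. In WT day 2 cells of at least 3000 UMIs, the 10th and 90th percentile of KRT8 were 0.875 and 20.9 UMIs per 10000, which is a 23.9-fold range. In the other libraries that range was 5.86-fold to 9.48-fold. For KRT7 it was 3.30-fold to 6.69-fold and for KRT19 3.49-fold to 5.51-fold. Counting noise within a cell is part of these ranges and weighs more on a gene of fewer UMIs.

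The authors' clusters showed that the 3 genes did not move as 1 unit. WT and CF cells had been clustered separately, into 41 WT and 30 CF clusters, of which 39 and 29 held at least 50 cells. Clusters were made from the expression of these same cells, so their levels are a description. KRT7 ranged from 668 CPM in WT cluster 4 to 5039.7 CPM in CF cluster 11. KRT8 ranged from 217 CPM in WT cluster 4 to 2982 CPM in WT cluster 7. KRT19 ranged from 1505 CPM in CF cluster 19 to 8155 CPM in WT cluster 34. The fold from lowest to highest cluster was 7.55 for KRT7, 13.8 for KRT8 and 5.42 for KRT19.

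The extreme clusters had distinct leading genes. WT cluster 4, with 1025 of its 1030 cells from day 2, was lowest in KRT7 and KRT8, held 5610.2 CPM of KRT19 and 1936 CPM of KRT5, and was named ductal. WT cluster 7, highest in KRT8, was named centroacinar, had KRT5 at 10.6 CPM and was led by HSPB8, WFDC2 and EDN1. CF cluster 11, highest in KRT7, was named centroacinar, had VIM at 927 CPM and was led by genes that include ACTA2, COL1A1 and TAGLN, which are known from contractile mesenchymal cells, and had CDH1 at 349 CPM. CF cluster 19, lowest in KRT19, was named ductal but was led by SPINK1 and the trefoil factors TFF1, TFF2 and TFF3. Its cells had a median of 13.5% mitochondrial UMIs, and the next lowest CF clusters in KRT19, clusters 15, 9 and 27, had 12.8%, 11.8% and 17.4%, beside a median of 7.13% over the CF clusters. Across clusters, the mitochondrial percent had r of -0.59 in WT and -0.69 in CF to KRT19, -0.34 and -0.63 to KRT7, and 0.37 and -0.23 to KRT8. By ranks the sign for KRT8 in CF turned, with Spearman's rho of 0.16. The part of RNA quality in these levels was not tested.

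**Figure D3:**
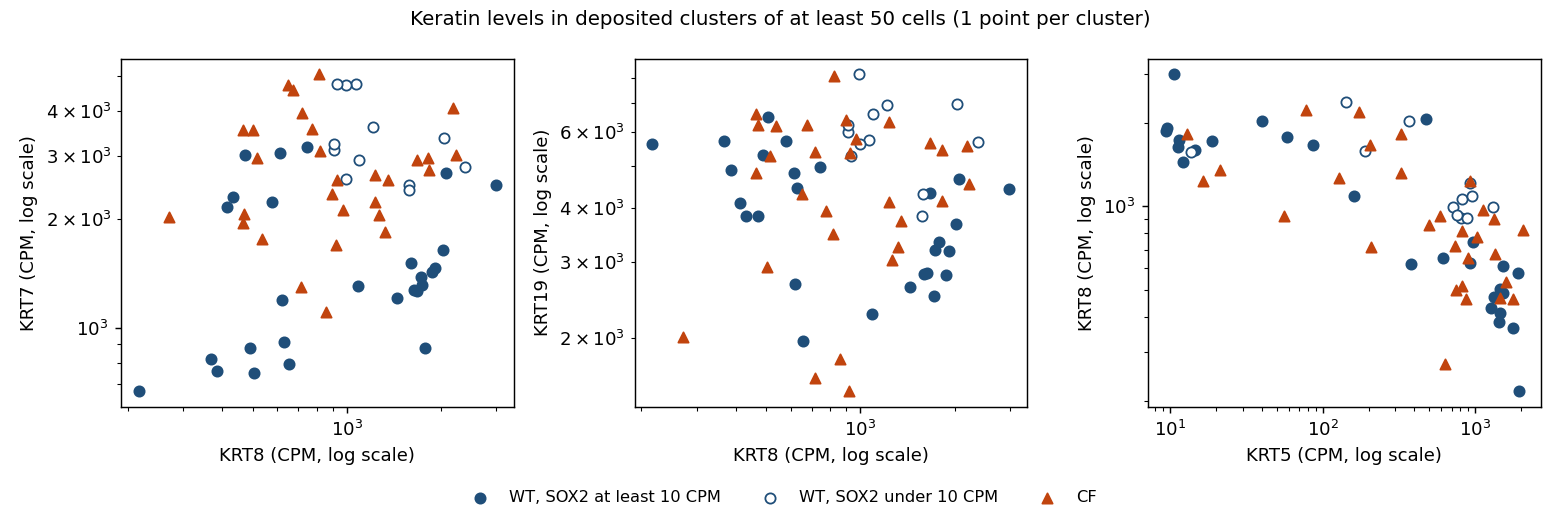
Levels of 2 keratins in each of 68 clusters of at least 50 cells, on logarithmic axes in UMIs per 1000000 (CPM), with 1 point per cluster, WT as circles (open where SOX2 is under 10 CPM) and CF as triangles. KRT7 and KRT19 show little relation to KRT8, KRT8 tends to be lower where KRT5 is higher, with exceptions, and the open WT circles lie at 2412 to 4750.0 CPM of KRT7 and at 3829 to 8155 CPM of KRT19.

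Across clusters, KRT8 tended to be lower where KRT5 was higher. Pearson's r of the log2 levels was -0.77 over 39 WT clusters and -0.62 over 29 CF clusters, whereas KRT8 and CDH1, the cadherin of adherens junctions, had r of 0.83 and 0.53. KRT19 had the reverse pattern, with r of 0.62 and 0.39 to KRT5 and of -0.50 and -0.63 to CDH1. KRT7 had r of 0.16 and 0.0996 to KRT5, of 0.17 and -0.38 to CDH1, and of 0.76 and 0.72 to VIM. Among the members, r was 0.28 and 0.084 for KRT7 and KRT8, 0.46 and 0.45 for KRT7 and KRT19, and -0.22 and 0.11 for KRT8 and KRT19. Ranks gave other values in CF, where Spearman's rho was 0.20 for KRT7 and KRT19, -0.031 for KRT8 and KRT19, and 0.64 for KRT19 and KRT5. KRT8 and its partner KRT18 had r of 0.20 and 0.40, lower than the 0.45 and 0.70 of KRT7 and KRT18. UMIs of KRT8 per UMI of KRT18 ranged from 0.546 in WT cluster 23 to 7.33 in CF cluster 15. These correlations are descriptions over clusters that share libraries, donors and depth.

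COL1A1, a fibrillar collagen of fibroblasts, was highest in the day 7 and day 9 CF libraries, where KRT7 was highest too. The 6 markers COL1A1, COL3A1, DCN, LUM, PDGFRA and PDGFRB summed to 2.30 to 5.76 CPM in the WT libraries and 1.51 to 23.5 CPM in the CF libraries. COL1A1, the 1 marker of the 6 that reached 10 CPM, was at 4.49, 0.084, 18.9 and 13.2 CPM in CF at day 2, 5, 7 and 9 and at most 0.65 CPM in WT. COL3A1 was at 1.13, 0.014, 2.16 and 0.84 CPM in CF and had no UMI in any WT library, and PDGFRB was at 0.21, 0.014, 0.23 and 0.34 CPM in CF and at most 0.0099 CPM in WT. DCN was at 0.53 CPM in CF at day 2, on 54 UMIs beside 1 in WT, and at most 0.18 CPM elsewhere, and LUM was at most 0.16 CPM in every library. PDGFRA was lower in CF on all 4 days, at 0.55 to 2.13 CPM beside 2.29 to 5.51 CPM in WT. With CF cluster 11 left out, the CF minus WT difference of KRT7 was 0.55 at day 7 and 0.45 at day 9, beside 0.65 and 0.53 with it.

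Among the WT clusters, those low in SOX2, a transcription factor of foregut progenitors, held more KRT7 and KRT19. Of the 41 WT clusters, 12 were under 10 CPM of SOX2, as were all 30 CF clusters, and the limit was known from earlier results of these data. The 12 WT clusters had a median of 3163 CPM of KRT7, beside 1317 CPM in 27 others of at least 50 cells, and of 5872 CPM of KRT19, beside 3825 CPM. For KRT8 the medians were 1080.4 and 744 CPM. They held 14.3%, 33.8%, 27.5% and 27.9% of WT cells at day 2, 5, 7 and 9. Within the same WT library, KRT7 was 3.45, 1.43, 1.73 and 1.95 times as high in these clusters as in the other WT clusters on the 4 days, and KRT19 was 1.36, 1.64, 1.47 and 1.58 times as high. KRT8 did not keep one direction, with ratios of 1.91, 0.768, 0.998 and 0.773. The split ran close to the class names: no WT progenitor-named cluster was SOX2-low, and most SOX2-low clusters were ductal-named. At day 5, KRT7 was at 3156 to 3661 CPM in SOX2-low ductal clusters of at least 50 cells and at 1901 to 3100 CPM in other ductal ones. At day 9, SOX2-low cluster 8, at 4747 CPM, held 801 of 1510 cells. SOX2-low cluster 17, at 2562 CPM, was under clusters 2 and 5 of the others. Cluster 19 held 556 of the 892 SOX2-low cells at day 2.

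Set against the SOX2-low WT cells alone, CF PDE was lower in KRT7 on 3 of 4 days, with the same CF libraries as before. The ratio of CF to these WT cells was 0.71, 0.832, 1.13 and 0.953 at day 2, 5, 7 and 9, and against the other WT cells it was 2.45, 1.19, 1.96 and 1.86. For KRT19 the CF level was below the SOX2-low WT level on each day, at ratios of 0.767, 0.704, 0.699 and 0.792, and above the level of the other WT cells, at 1.05, 1.15, 1.03 and 1.25. With TMM factors the difference at day 7 turned, to -0.026 on the log2 scale for KRT7 against the SOX2-low WT cells and to -0.16 for KRT19 against the other WT cells. KRT8 was lower in CF than in the SOX2-low WT cells on all 4 days, at ratios of 0.776, 0.794, 0.799 and 0.854. Against the other WT cells, KRT8 in CF was higher at day 2, at a ratio of 1.48, and lower at day 5, 7 and 9, at 0.609, 0.797 and 0.660.

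Within most clusters that could be followed over days, keratin levels differed less than 2-fold. In 22 WT and 15 CF clusters with at least 50 cells on more than 1 day, the highest day exceeded the lowest by a median of 1.14-fold in WT and 1.06-fold in CF for KRT7, 1.23-fold and 1.13-fold for KRT8, and 1.14-fold and 1.101-fold for KRT19. A single value passed 2-fold, KRT8 in WT cluster 12 at 2.09-fold. Day 2 is barely covered, since 3 of these clusters had at least 50 cells on day 2 and on a later day. Of these, CF cluster 10 had the highest CF value for KRT7, at 1.39-fold, and CF cluster 26 had the highest for KRT8, at 1.41-fold, and for KRT19, at 1.53-fold. When each cluster was given its level over all days and only its share of the UMIs was let vary by day, KRT7 changed from day 2 to day 9 by 1.101 on the log2 scale in WT and 0.71 in CF, beside the observed 1.12 and 0.75. KRT8 changed by 0.83 and -0.072, beside 0.84 and -0.062, and KRT19 by -0.37 and -0.35, beside -0.44 and -0.35. Because many clusters came mostly from 1 library, a change of level within a cell state and a change of the clusters present cannot be told apart here.

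The authors had also given each cluster 1 of 6 class names. They named ductal clusters partly by KRT19, KRT5 and KRT15 and centroacinar clusters partly by KRT7, within each genotype separately, so class levels are a description and the WT and CF cells of a class come from different clusters. For 13 of 71 clusters, markers of some other class outnumbered those of the given name in the 10 leading genes, or the cells held few UMIs and no marker of the name led them. Setting aside by markers rested on 1 gene in WT cluster 1 (S100A4) and in CF clusters 8 (MUC4), 9 (CCNB1), 19 (TFF3) and 28 (KRT5), and on more in WT cluster 29. WT cluster 1 held 555 of 1148 progenitor-named WT cells at day 5. CF clusters 15 and 25, with as many markers of another class as of their own, were kept. The rule thus does not settle the class of a cluster. The values that follow are from the 58 others, in classes of at least 50 cells in a library. The share of cells in kept ductal clusters went from 70.2% at day 2 to 36.9% at day 9 in WT and from 39.9% to 2.05% in CF, where every ductal-named cluster together held 57.6% and 11.4%. The share in kept centroacinar clusters went from 0.434% to 40.5% in WT and from 21.3% to 66.0% in CF, where all centroacinar-named clusters held 25.1% and 78.6%.

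Centroacinar-named cells held the largest genotype difference of the classes compared, but the name covered unlike clusters in WT and CF. KRT5 was at 10.6 to 18.9 CPM in WT clusters 3, 7 and 16, and at 476, 190 and 969 CPM in WT clusters 12, 30 and 36. It was at 743 to 1773 CPM in CF clusters 0, 1, 3, 5, 11, 14, 16 and 20, and at 12.8 and 206 CPM in CF clusters 7 and 15. All kept WT clusters of the name except cluster 30 had at least 10 CPM of SOX2, and all CF ones were under it. The part of this in the differences was not tested. In the class, KRT8 was at 2727, 1398 and 1966 CPM in WT and 627, 662 and 1117 CPM in CF at day 5, 7 and 9, with ratios of 0.23 (0.226 to 0.234), 0.474 (0.463 to 0.485) and 0.568 (0.561 to 0.575). KRT7 was at 2807, 2087 and 1899 CPM in WT and 2967, 4047 and 4019 CPM in CF, with ratios of 1.06, 1.94 and 2.12. The class level of KRT7 was thus lower at each later day in WT, while in CF day 7 and day 9 lay above day 5. Kept WT clusters of this name with at least 50 cells on both day 7 and day 9 were clusters 12, 16 and 30. Each was higher in KRT7 at day 9, at 2861, 1562 and 2401 CPM beside 2035, 1252 and 2349 CPM. WT cluster 3, at 1386 CPM, held 965 of the 2192 WT cells at day 9 and under 50 cells at day 7. KRT19 was at 4648, 4494 and 3169 CPM in WT and 4579, 4445 and 4380.1 CPM in CF. In this class, KRT8 passed 2-fold at day 5 and 7 and KRT7 at day 9, where 14.2%, 13.1% and 17.0% of genes did at day 5, 7 and 9. The calls at day 7 rest on the choice of clusters, since with every centroacinar-named cluster the ratio of KRT8 was 0.508, no longer past 2-fold, and that of KRT7 was 2.098, past it. With the TMM factors of the libraries, KRT7 at day 9 was 0.95 on the log2 scale beside 1.08, no longer past 2-fold. Of the 16 kept clusters of this name, 15 had none of its markers among their 10 leading genes. Leading genes were ranked by fold over all other clusters of the genotype, those of the same class included. Markers that most clusters share can therefore seldom lead, and this count does not decide whether the name fits. The name was taken from the authors' annotation. PROM1, which the authors also used as a centroacinar marker, was at 343 CPM in the WT and 7.76 CPM in the CF library of day 9. KRT7, of the same marker list, went the other way, at 2493 and 3595 CPM, and levels of the other listed markers are not given here. These are levels of whole libraries, not of centroacinar-named cells, and PROM1 was among the leading genes of CF cluster 15. CF cluster 11 and CF cluster 3, which is led by genes that include SPP1, SPARC, VCAN and CTHRC1 and held 4718 CPM of KRT7 and 463 CPM of VIM, are part of these CF values. Which clusters to leave out was chosen after seeing the data. Without both clusters the ratio of KRT7 was 1.71 at day 7 and 1.79 at day 9, no longer past 2-fold, and that of KRT8 was 0.438 and 0.717. Of the 856 CF cells left at day 9, 473 were of CF cluster 7, led by genes that include WFDC2, TFF1 and TFF2. It held 1829 CPM of KRT8 on that day, beside 533 to 800 CPM in CF clusters 3, 11, 14 and 16, so the KRT8 ratios at day 9 depend on this cluster. Without cluster 11 alone the ratio of KRT7 was 1.81 at day 7 and 2.02 at day 9, that of KRT8 was 0.441 and 0.598, and that of KRT19 was 1.05 and 1.43. WT had 29 cells of this class at day 2, under the limit of 50 cells, and CF held 1894 CPM of KRT7, 479 CPM of KRT8 and 6488 CPM of KRT19 in it on that day.

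Centroacinar progenitor-named cells were higher in KRT7 and KRT19 in CF on all 4 days. KRT7 was at 893, 1382, 1323 and 1585 CPM in WT and 3026, 2271, 2790.4 and 2514 CPM in CF, 2-fold apart at day 2 and 7, where 11.1% and 13.8% of genes were (11.5% at day 5 and 13.4% at day 9). With TMM factors the difference at day 7 was 0.87 on the log2 scale beside 1.08, no longer past 2-fold, and that at day 2 was 1.70. At day 2, 613 of the 614 CF cells were of CF cluster 4, led by genes that include SCGB1A1, IFIT3 and ISG15. On that day 682 of the 711 WT cells were of WT cluster 13, led by genes that include SCGB1A1 and PI3. All kept WT clusters of this name had at least 10 CPM of SOX2, and all kept CF ones were under it. KRT19 was at 3388, 3170.2, 2980.3 and 3132 CPM in WT and 4569, 3534, 3810.4 and 3831 CPM in CF. KRT8 was at 1784, 1975, 1499 and 1898 CPM in WT and 2236, 1278, 1339 and 1268 CPM in CF, above WT at day 2 and below it later.

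In kept ductal clusters KRT8 was higher in CF on all 4 days, unlike in the whole libraries from day 5 on. It was at 789.7, 1008, 890.4 and 995 CPM in WT and 1014, 1479.6, 1356 and 1253 CPM in CF. KRT7 was at 1291, 3278, 2861 and 3581 CPM in WT and 2247, 2841, 3079.6 and 2855 CPM in CF. KRT19 was at 5362, 5769.6, 5782 and 4772 CPM in WT and 6230.1, 5576, 5395 and 5227 CPM in CF. Kept CF ductal clusters held 88 cells at day 7 and 51 at day 9. CF cluster 12, led by genes that include UPK3A and GKN1, held 329 of 495 kept CF ductal cells at day 5 and 50 of the 88 at day 7. It held 1693 and 1505 CPM of KRT8 on these days. CF clusters 10 and 26 were at 1079 and 896 CPM of KRT8 at day 5, so the difference on that day rests mostly on cluster 12. Of the 26 kept ductal clusters, 22 had none of the ductal markers among their leading genes, which again cannot decide whether the name fits, since KRT19 is shared by nearly all cells. WT cluster 17, led by genes that include TFF1 and TFF2, was kept and held 406 of the 2001 WT cells at day 9. CF cluster 19, led by genes that include TFF1, TFF2 and TFF3, was set aside. The rule thus kept a cluster led by trefoil factor genes in WT and left out such a cluster in CF. With every ductal-named cluster, the CF minus WT difference at day 9 was -0.074 for KRT8, -0.96 for KRT7 and -1.16 for KRT19, beside 0.33, -0.33 and 0.13. It was -0.24 for KRT7 and -0.78 for KRT19 at day 7, beside 0.11 and -0.0998, and -0.17 for KRT19 at day 2, beside 0.22. The order of the genotypes thus rests on the choice of clusters for KRT8 at day 9, KRT7 at day 7 and KRT19 at day 2 and 9. TMM factors also turned KRT7 at day 7, to -0.10.

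**Figure D4:**
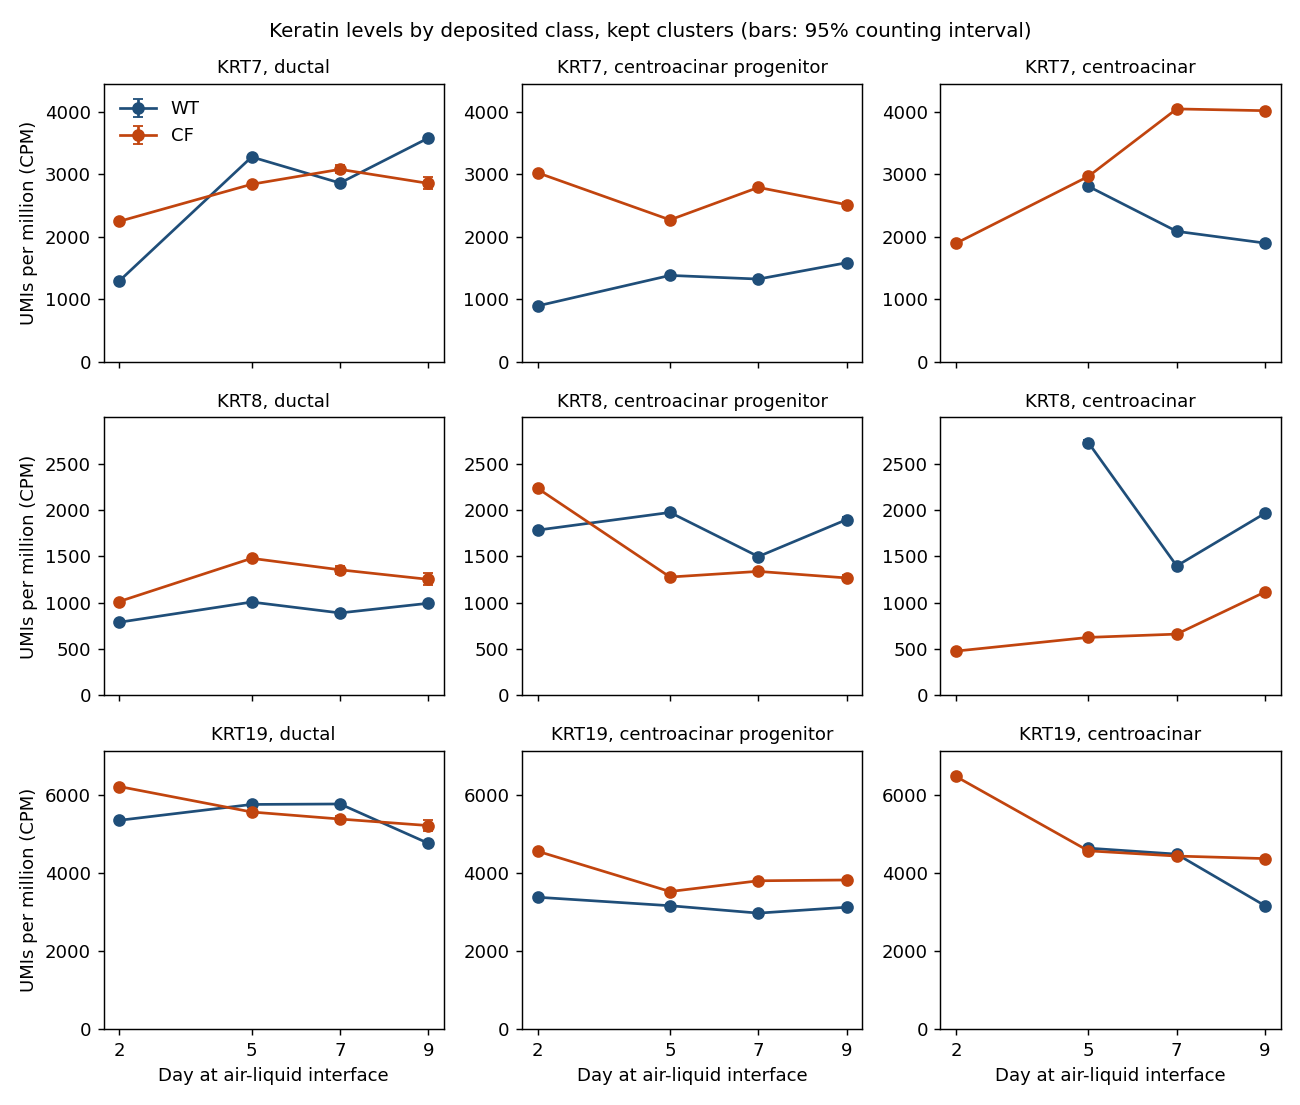
UMIs per 1000000 (CPM, vertical axis from 0) of KRT7, KRT8 and KRT19 in kept clusters of 3 classes against day at the air-liquid interface, with WT in blue, CF in orange and 95% counting intervals. KRT8 is higher in CF in kept ductal clusters and lower in CF in centroacinar-named cells. Kept CF ductal cells at day 5 and 7 are mostly of CF cluster 12. The class level of KRT7 in centroacinar-named cells is lower at each later day in WT and, in CF, higher at day 7 and 9 than at day 5. Single WT clusters of this name do not all follow the class level.

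The genes whose pattern across clusters was most like each member were found among 4956 genes of at least 50 CPM in a cluster of each genotype, by the lower of the Pearson r over WT clusters and over CF clusters. For KRT7 they were CTNNBIP1, an inhibitor of beta-catenin, with r of 0.83 and 0.85, USF1, a helix-loop-helix transcription factor, with 0.76 and 0.76, the unnamed genes LOC123390888 and LOC106003383, and TPM1, an actin-binding tropomyosin, with 0.80 and 0.74. TPM1 ranged from 57.2 to 759 CPM over WT clusters and from 61.5 to 820.1 CPM over CF clusters. For KRT8 they were PTN, a heparin-binding growth factor, with r of 0.85 and 0.87, SMIM22, a small membrane protein, with 0.88 and 0.84, CUNH1orf210, IDH1, the cytosolic isocitrate dehydrogenase, with 0.81 and 0.81, and LOC101679851. PTN ranged from 193 to 1905 CPM over WT clusters and from 231 to 1402 CPM over CF clusters. For KRT19 they were MANBAL, ARL2, a small GTPase, CAVIN3, a coat protein of caveolae, GNAI2, an inhibitory G protein subunit, and PAGR1, with a lower r of 0.74 to 0.78. By Spearman's rho, 3 of the 5 genes stayed among the top 5 for KRT7, 3 for KRT8 and 0 for KRT19. No member was among the 5 genes most like another.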

How the data were processed

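Libraries were made by the 10x Genomics droplet method. With Cell Ranger 5.0.1 the authors collapsed reads to unique molecular identifiers (UMIs), and they deposited matrices of unscaled UMI counts over 27912 genes. Cells under 200 genes or above 20% mitochondrial reads had been removed by the authors in Seurat, and doublets with DoubletFinder. Doublets were not called again. Their deposited cell table gave the library, cluster, class, UMI count and percent of mitochondrial reads of 32945 cells. Barcodes shared between libraries were at most 0.4% of the smaller.

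Genotype and day came from the sample titles. UMIs of retained cells were summed per library, cluster or class and scaled to 1000000 (CPM) with Python 3.11.15, NumPy 2.4.6 and SciPy 1.17.1. Differences were taken on the log2(CPM + 1) scale, which understates changes of low genes. Intervals were exact Poisson for a UMI sum, exact conditional binomial for a ratio and exact Clopper-Pearson for a share, at 95%. They cover counting error only. With 1 library per genotype and day no test was run. Alternatives were TMM factors (edgeR 4.0.16), size factors (DESeq2 1.42.0), a pseudocount of 5, all deposited barcodes and cells of at least 3000 UMIs. Scripts were tested on simulated data. A cluster's class name was set aside where another class had more markers among its 10 leading genes, or where its cells had few UMIs and no marker led it. Members were the 3 keratins named, and further genes were KRT18, keratins of at least 10 CPM, the 5 genes most like each member by r over clusters, and lists, with 2 to 4 examples of the largest mean difference between genotypes. Members, lists and limits were chosen with earlier results of these data known.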

Additional observations from a re-analysis of the deposited data

Results flagged for a closer look

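Effects in opposite directions on different days, each with a counting interval that excludes 0, were seen for all 3 genes in the difference between CF and WT. None of these differences between days could be tested with 1 library per genotype and day. For KRT8 the CF minus WT difference on the log2 scale was 0.41 at day 2, against -0.55 at day 5, -0.33 at day 7 and -0.50 at day 9. For KRT7 it was 0.90, 0.65 and 0.53 at day 2, 7 and 9, against -0.010 at day 5. For KRT19 it was -0.17 at day 5 and -0.17 at day 7, against 0.089 at day 9. KRT8 also differed in its course, since from day 2 to day 9 it changed by 0.84 in WT and by -0.062 in CF, which was not tested. With TMM factors the KRT8 differences kept these directions, and KRT7 at day 5 and KRT19 at day 9 did not.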

How the results depend on the processing

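No test and no paired analysis was run, with 1 library per genotype and day. The 4 days may share donors and were not used as replicates or pairs. Changing the pseudocount to 5 CPM or keeping cells of at least 3000 UMIs left all 18 differences of the 3 genes within their counting intervals. With TMM factors, the CF minus WT difference of KRT7 at day 2, 5, 7 and 9 was 0.84, 0.020, 0.44 and 0.40 on the log2 scale, and its change from day 2 to day 9 was 0.93 in WT and 0.48 in CF. For KRT8 they were 0.35, -0.52, -0.53 and -0.62, and 0.64 and -0.33. For KRT19 they were -0.055, -0.14, -0.38 and -0.039, and -0.64 and -0.62. With DESeq2 size factors, the CF minus WT difference of KRT7 at day 2, 5, 7 and 9 was 0.87, 0.052, 0.48 and 0.42 on the log2 scale, and its change from day 2 to day 9 was 0.96 in WT and 0.52 in CF. For KRT8 they were 0.38, -0.49, -0.49 and -0.60, and 0.68 and -0.30. For KRT19 they were -0.031, -0.10, -0.34 and -0.015, and -0.60 and -0.59. Both scalings turned the sign of KRT7 at day 5 and of KRT19 at day 9, and both took KRT7 in WT under 2-fold. The sign of KRT19 at day 2, where the difference was within counting error, turned with all deposited barcodes and with cells of at least 3000 UMIs. With all deposited barcodes, KRT7 was 0.62 for CF minus WT at day 7, 1.07 for WT day 9 minus day 2 and 0.70 for CF day 9 minus day 2. KRT8 was -0.57 for CF minus WT at day 5, -0.45 for CF minus WT at day 9 and 0.78 for WT day 9 minus day 2. KRT19 was 0.013 for CF minus WT at day 2, -0.18 for CF minus WT at day 5, -0.19 for CF minus WT at day 7, 0.12 for CF minus WT at day 9, -0.48 for WT day 9 minus day 2 and -0.38 for CF day 9 minus day 2. After the data were seen, clusters of few UMIs were left out, which gave 0.097 for KRT19 at day 9, and CF cluster 11 was left out, which gave 0.55 and 0.45 for KRT7 at day 7 and 9, -0.44 for KRT8 at day 9, and -0.14 and 0.11 for KRT19 at day 7 and 9. The factors of the libraries, applied to class levels after the data were seen, took KRT7 in centroacinar-named cells at day 9 to 0.95 (TMM) and 0.98 (DESeq2) and in progenitor-named cells at day 7 to 0.87 and 0.91, all under 2-fold. They turned KRT7 in ductal-named cells at day 7 to -0.10 and -0.056 and KRT19 in centroacinar-named cells at day 5 to 0.0084 and 0.041, and DESeq2 factors turned KRT19 in ductal-named cells at day 5 to 0.013. Against the SOX2-low WT cells, KRT7 at day 7 turned to -0.026 with TMM factors and was 0.018 with DESeq2 factors, and against the other WT cells KRT19 at day 7 turned to -0.16 and -0.12. Of 84 class levels, 41 moved past their counting interval when every cluster was used, and 23 of 24 shares of cells did so without thinning. With a minimum of 1 CPM in place of 10, the number of genes 2-fold apart between the genotypes was 1182, 1000, 1182 and 1059 in place of 663, 512, 633 and 594 at day 2, 5, 7 and 9, and 1359 in place of 765 between day 2 and day 9 in CF, since more genes of low level were tested. The causes of the other shifts were not tested. The least counted level of the 3 genes in a whole library, KRT8 in CF at day 7, had an interval of 882 to 902 CPM, while class levels rest on as few as 1487 UMIs, and none has a replicate.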

Other observations

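The 3 proliferating and acinar classes are not part of the comparisons above. At day 2, WT clusters named acinar held 869 CPM of KRT7, 482 CPM of KRT8 and 5263 CPM of KRT19 in 339 cells, and WT clusters named proliferating acinar held 724, 419 and 5505 CPM in 650 cells. CF clusters named proliferating acinar held 1973 CPM of KRT7, 957 CPM of KRT8 and 6005 CPM of KRT19 in 154 cells on that day. WT clusters named proliferating ductal held 2626 and 2529 CPM of KRT7 at day 5 and 7, 990.5 and 818 CPM of KRT8, and 5759 and 5294 CPM of KRT19, in 199 and 58 cells. KRT18 was at 422 CPM in WT and 442 CPM in CF in the proliferating acinar class, where the counting interval of the ratio, 0.997 to 1.104, included 1.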
